A study of Arabidopsis thaliana with 6 samples.

Results

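HSP70 proteins and their partners form the central folding machinery of the plant cytosol, and 7 Arabidopsis genes of this machinery are described here. They are 2 HSP70 genes (AT3G09440 and Hsp70-2, AT5G02490), the J-domain protein gene AT2G20560, the nucleotide exchange factor gene Fes1A (AT3G09350), 2 Hop genes (Hop3, AT4G12400, and Hop1, AT1G12270) and the FKBP-type isomerase gene AT5G48570, also called FKBP65 or ROF2. The genes were chosen by locus, with their difference between the arrays with and without dexamethasone already known, so that this difference is given below as a description and without a test. Each had 1 probe set, and together they are 7 of the 13286 genes that the array annotation used here names singly, and 7 of 22746 probe sets tested.

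The samples were root protoplasts (cells freed of their walls) of Arabidopsis thaliana from roots treated with nitrate, and nitrate was kept throughout. All of them carried a plasmid that makes the GARP-family transcription factor HRS1 (AtNIGT1), which responds to nitrate, under the CaMV35S promoter, which is active in most plant cells, as a fusion to the glucocorticoid receptor. The fusion protein is kept out of the nucleus until the synthetic glucocorticoid dexamethasone (DEX) releases it. All samples were given 35 µM cycloheximide, which blocks translation. The 3 −DEX samples had no DEX and the 3 +DEX samples had 10 µM DEX. Transfected cells were sorted by the red fluorescent protein of the plasmid, and the RNA was amplified and measured on 1 ATH1 array per sample. The comparison asks which transcripts differ when HRS1 enters the nucleus without new protein synthesis. Arrays of DEX-treated protoplasts without the fusion were not analysed here, so an effect of HRS1 and any other effect of DEX cannot be told apart.

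HSP70 binds exposed hydrophobic stretches of unfolded proteins and releases them in a cycle driven by ATP. J-domain proteins bring clients to HSP70 and stimulate its ATP hydrolysis, and nucleotide exchange factors such as Fes1 free it of ADP for the next round. Hop proteins hold HSP70 and HSP90 together through tetratricopeptide repeats, so that clients pass from one to the other, and FKBP-type isomerases of the large kind dock on HSP90 in the same way. In plants many of these genes are induced by heat through heat shock factors, while others are made constantly.

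Values are log2 intensities after scaling to one median for all arrays, and differences are +DEX minus −DEX with the standard error (SE) of a limma fit over all 22746 probe sets. Background was set on each array from 27 Bacillus controls, at their 95th percentile. All 7 genes were above it on all 6 arrays, as were 7606 probe sets in all. The median deposited intensity ranged from 66.3 to 92.9 over the arrays. −DEX replicate 1 stood apart from the other arrays, with Spearman correlations that averaged 0.708, where each of the others averaged 0.777 to 0.822, and with a ratio of 3′ to 5′ signal for the ubiquitin control of 18.6, against 5.45 to 8.85. For the GAPDH control this ratio was the lowest on the same array, 2.12 against 2.31 to 3.66, and for the actin control too, 0.28 against 1.39 to 7.58. Results are therefore also given without it, and the part of RNA quality in them was not tested. A gene is called measured here only if the array annotation names it alone for a probe set. Genes not measured may still have values under probe sets with several names or no matching name. By this rule 2 of 18 markers of root cell types and shoot mesophyll were measured, EXPA7 of root hairs and AT1G62500 (CO2) of the cortex. Both lay under background on all 6 arrays, so these 2 markers were not detected in the labelled tissue. In such bulk samples fewer cells of a type and less RNA per cell cannot be told apart. The number of arrays limits the precision, and the labels do not say that replicates came from separate cultures, so that p-values reflect only the scatter of these samples, part of which may be technical.

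In 6 of the genes, all but Hop1, the highest +DEX value was below the lowest −DEX value. The median difference of the 7 genes was −2.69, against −0.10 over all probe sets. Values without overlap in this direction occurred in 7.55% of all probe sets and in the opposite direction in 4.99%. At a limma adjusted p under 0.05 over all probe sets, 27 were lower with DEX, or 0.119%, and 0 were higher, where an unadjusted p under 0.05 gave 934 lower (4.11%) and 567 higher (2.49%). Since the 7 genes were chosen with this contrast known, nothing is read from their number without overlap.

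**Figure D1:**
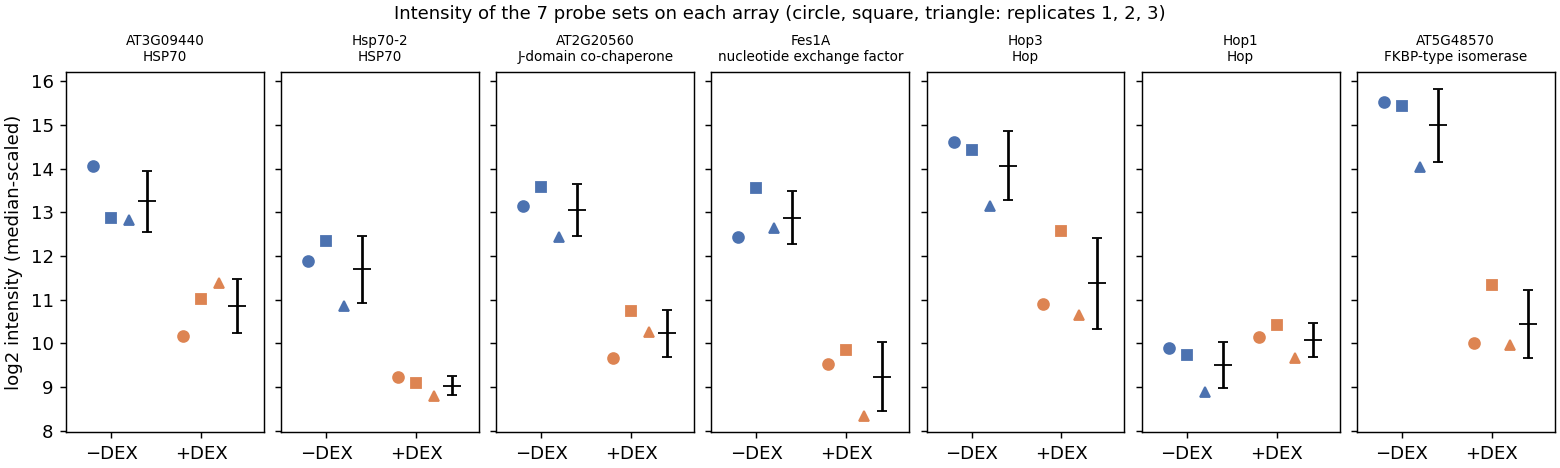
Log2 intensity (vertical axis, median-scaled) of the 7 probe sets on the 3 −DEX (blue) and 3 +DEX (orange) arrays, with the group mean ± SD in black. In all genes but Hop1 the +DEX points lie below all −DEX points, and for AT5G48570 the means are 15.00 and 10.44.

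The HSP70 genes encode the chaperone itself, and both belong to its cytosolic branch. AT3G09440 had log2 intensities of 14.06, 12.86 and 12.82 without DEX and 10.17, 11.02 and 11.39 with it. The groups did not overlap, and −DEX replicate 1 was the highest array by more than 1 log2 unit. The mean was 13.25 ± 0.70 (SD, n = 3) without and 10.86 ± 0.62 (SD, n = 3) with DEX, a difference of −2.39 ± 0.46 (SE), or 5.25-fold lower. Without −DEX replicate 1 the difference was −1.98.

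Hsp70-2 had log2 intensities of 11.88, 12.35 and 10.85 without DEX and 9.22, 9.08 and 8.79 with DEX. Its +DEX arrays lay within 0.43 log2 units of each other, the narrowest range of the 7 genes in that group, while the −DEX arrays spanned 1.49. The mean went from 11.70 ± 0.76 to 9.03 ± 0.22 (SD, n = 3 each), a difference of −2.66 ± 0.51 (SE), or 6.34-fold lower, and −2.57 without −DEX replicate 1. Over the 13 other settings the difference was smallest without −DEX replicate 2, at −2.34. Cytosolic HSP70 genes have very similar coding sequences, and how far each probe set also takes up RNA of its relatives was not tested, so the identity of both signals is uncertain. By the TAIR10.1 gene table, a direct neighbour of Hsp70-2 is the HSP70 family gene HSC70-1, which has no singly named probe set here.

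Also measured were 2 further genes of the HSP70 family, AT1G11660 and AT4G16660, both related to the large HSP110 type that in other eukaryotes serves as a nucleotide exchange factor. AT1G11660 differed by −0.85 ± 0.55 (limma adjusted p = 0.79) and AT4G16660 by −0.89 ± 0.69 (limma adjusted p = 0.82). For AT4G16660 the −DEX values were 9.83, 12.71 and 10.21 and the +DEX values 10.74, 9.89 and 9.45, so the groups overlapped and −DEX replicate 2 alone was high. Without that array its difference was 0.01, and without −DEX replicate 1 it was −1.43. AT1G11660 ranged from −1.21 to −0.46 with single arrays left out, without +DEX replicate 1 and without +DEX replicate 3. Neither passed the threshold. No call is given for AT3G09440 and Hsp70-2, which were chosen with this contrast known, so calls are not compared within the family. A difference between AT1G11660 or AT4G16660 and those genes was not tested.

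The J-domain protein gene AT2G20560 encodes a DnaJ-type partner that hands clients to HSP70. Its log2 intensities were 13.14, 13.59 and 12.43 without and 9.67, 10.75 and 10.27 with DEX. A gap of 1.68 log2 units separated the lowest −DEX array from the highest +DEX array. The mean went from 13.05 ± 0.59 to 10.23 ± 0.54 (SD, n = 3 each), a difference of −2.83 ± 0.45 (SE), or 7.09-fold lower, and the difference was −2.78 without −DEX replicate 1. Over the 13 other settings it was smallest without +DEX replicate 1, at −2.55.

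Of 25 other J-domain loci in a list of this family 12 were measured, and 0 passed a limma adjusted p of 0.05 in either direction. Of all probe sets only 0.119% were called lower and 0 higher, so nothing is read from this count. Of the 12, 7 differences were negative and 5 positive, with a median of −0.15, and on the deposited scale the balance turned to 5 lower and 7 higher with a median of 0.04. AT1G56300, another J-domain gene, had values of 8.44, 9.97 and 8.36 without and 6.42, 7.28 and 5.26 with DEX. These groups did not overlap, but the difference of −2.60 ± 0.84 had a limma adjusted p of 0.74, and the gene lay above background on 2 of 3 +DEX arrays. AT5G25530 differed by 1.33 ± 1.06, AT3G47940 by −0.96 ± 0.67 and AT5G01390 by 1.14 ± 1.42 (limma adjusted p = 0.82, 0.81 and 0.89). On −DEX replicate 1 AT5G25530 was at 4.19 and AT5G01390 at 1.80, below all their other arrays. Without that array their differences turned to −0.12 and −0.70. ATERDJ3B of the endoplasmic reticulum and the mitochondrial ATJ1 differed by 0.15 ± 0.75 and −0.45 ± 0.75. ATERDJ3B turned to −0.73 without −DEX replicate 1 and ATJ1 to 0.26 without −DEX replicate 2, so neither has a settled direction. AT3G47940 was at −0.47 without −DEX replicate 1.

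The nucleotide exchange factor Fes1A is known to stabilise cytosolic HSP70 in heated Arabidopsis. Its log2 intensities were 12.43, 13.56 and 12.63 without and 9.52, 9.85 and 8.34 with DEX. The gap between the groups was 2.59 log2 units, wider than the range within either group, and +DEX replicate 3 was the lowest array. The mean went from 12.88 ± 0.60 to 9.24 ± 0.79 (SD, n = 3 each), a difference of −3.64 ± 0.51 (SE), or 12.5-fold lower. Among the 7606 probe sets above background on all 6 arrays, this was the 10th most negative difference. Over all probe sets tested, dim ones included, the difference stood at place 103. Without −DEX replicate 1 it was −3.86, and without +DEX replicate 3 it was −3.19.

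Its relatives had other values. Fes1B was at 9.33, 9.94 and 9.61 without and 9.79, 9.46 and 10.83 with DEX, a difference of 0.40 ± 0.55 (limma adjusted p = 0.91), and its groups overlapped. Without +DEX replicate 3 that difference was 0.0032. Fes1C lay above background on 1 of 3 arrays in each group, so its difference of 0.60 ± 1.38 is mostly one of background. The within-array log2 ratio of the Fes1A to the Fes1B probe set, in which the scaling of the array cancels, was 3.11, 3.62 and 3.03 without DEX and −0.28, 0.38 and −2.49 with it. It moved by −4.05 between the group means. This ratio compares 2 probe sets and is not a ratio of transcript levels, and no test is given, since Fes1A was chosen for its difference. The third exchange factor measured outside the 7, AT1G36390, is of the GrpE type that serves organellar HSP70. It had values of 6.10, 6.62 and 7.67 without and 8.43, 8.31 and 9.21 with DEX, without overlap, a difference of 1.85 ± 0.77 (limma adjusted p = 0.75), and lay above background on 2 of 3 −DEX arrays. Of the 13 loci of exchange factors other than Fes1A, 3 were measured and 0 passed the threshold in either direction, where 0.119% of all probe sets were called lower and 0 higher.

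The 3 Hop genes of Arabidopsis, which encode the bridge between HSP70 and HSP90, were all measured. Hop3 had log2 intensities of 14.60, 14.44 and 13.16 without and 10.90, 12.57 and 10.64 with DEX. Among the 6 of the 7 genes without overlap its groups came closest to each other, with a gap of 0.59 between −DEX replicate 3 and +DEX replicate 2. The mean went from 14.06 ± 0.79 to 11.37 ± 1.05 (SD, n = 3 each), a difference of −2.69 ± 0.52 (SE), or 6.47-fold lower. The difference was −2.43 without −DEX replicate 1, −3.29 without +DEX replicate 2 and −2.33 without +DEX replicate 3.

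Hop1 was the exception among the 7 genes. Its log2 intensities were 9.88, 9.74 and 8.89 without and 10.14, 10.42 and 9.65 with DEX, so that the groups overlapped and +DEX replicate 3 lay below 2 of the −DEX arrays. The mean was 9.50 ± 0.54 without and 10.07 ± 0.39 with DEX (SD, n = 3 each), a difference of 0.57 ± 0.53 (SE). The difference was of about the size of its error, and it ranged from 0.27 to 0.78 over 13 other settings, with 0.76 without −DEX replicate 1.

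Hop2, the third gene of the family, was at 12.38, 12.83 and 12.06 without and 11.20, 11.88 and 11.88 with DEX. Its groups did not overlap, but the difference of −0.77 ± 0.40 had a limma adjusted p of 0.76. No call is given for Hop3, so Hop2 and Hop3 are not compared by their calls. The within-array log2 ratio of the Hop3 to the Hop1 probe set was 4.72, 4.70 and 4.27 without and 0.75, 2.15 and 0.99 with DEX, a shift of −3.27 between the group means. For Hop3 against Hop2 it was 2.23, 1.60 and 1.10 without and −0.30, 0.69 and −1.24 with DEX, a shift of −1.92. Neither ratio overlapped between the groups, which is a description, since Hop3 and Hop1 were chosen with their values known.

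**Figure D2:**
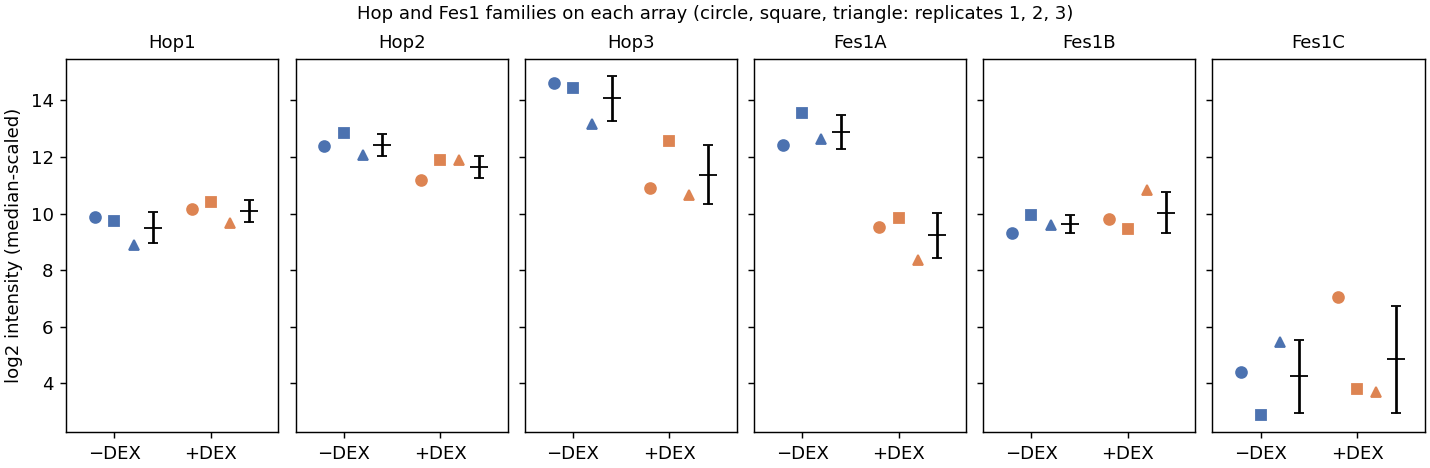
Log2 intensity (vertical axis, median-scaled) of the 3 Hop and 3 Fes1 genes on each −DEX (blue) and +DEX (orange) array, with the group mean ± SD in black. Hop3 and Fes1A have means 2.69 and 3.64 lower with DEX, Hop2 0.77 lower, and the groups of Hop1, Fes1B and Fes1C overlap.

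The FKBP-type isomerase AT5G48570 carries tetratricopeptide repeats and is known to bind HSP90. Its log2 intensities were 15.52, 15.44 and 14.03 without and 10.01, 11.33 and 9.96 with DEX. In the deposited values this was 42248, 36890 and 18378 without and 1023, 2999 and 1059 with DEX. The gap between the groups was 2.70 log2 units, the widest of the 7 genes. The mean went from 15.00 ± 0.84 to 10.44 ± 0.78 (SD, n = 3 each), a difference of −4.56 ± 0.48 (SE), or 23.6-fold lower. Among the 7606 probe sets above background on all arrays this was the most negative difference, and over all 22746, dim ones included, it stood at place 20. Without −DEX replicate 1 it was −4.30.

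Of the 10 other loci of FKBP and cyclophilin-40 isomerases 2 were measured, and 0 passed the threshold in either direction. The shares over all probe sets were 0.119% lower and 0 higher. AT3G12340, an FKBP, differed by −0.38 ± 0.62 (limma adjusted p = 0.93), and by 0.04 without +DEX replicate 2. SQN, the cyclophilin-40 that also docks on HSP90, has 2 probe sets, and a difference between them was not tested. The brighter differed by −0.03 ± 0.89 (limma adjusted p = 0.997) and turned to 0.16 on the deposited scale. It was −0.84 without −DEX replicate 1 and 0.44 without +DEX replicate 3. The dimmer differed by 1.77 ± 1.24 (limma adjusted p = 0.81), with −DEX values of 2.73, 6.71 and 8.40.

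The other co-chaperones measured act on HSP90 or are related to its partners. AT3G12050 encodes an activator of the HSP90 ATPase of the Aha1 type. Its log2 intensities were 14.52, 14.45 and 13.77 without and 12.75, 12.73 and 12.72 with DEX, so that the +DEX arrays were nearly equal and all lay below the −DEX arrays. The difference of −1.52 ± 0.33 had a limma adjusted p of 0.20. Without −DEX replicate 3 it was −1.75 with a limma adjusted p of 0.045. It was −1.38 without −DEX replicate 1 and −1.42 without −DEX replicate 2, with limma adjusted p of 0.50 and 0.73. The gene thus passed the threshold only when −DEX replicate 3 was left out.

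The HSP90-binding protein AT4G02450, of the p23 type, was bright in both groups, at 14.19, 14.80 and 13.84 without and 12.53, 13.88 and 13.54 with DEX, and differed by −0.96 ± 0.39 (limma adjusted p = 0.75), or by −0.56 without +DEX replicate 1. SGT1A, known as an HSP90 co-chaperone in disease resistance, was at 7.92, 11.14 and 9.54 without and 7.01, 8.50 and 5.66 with DEX. It differed by −2.48 ± 0.92 (limma adjusted p = 0.74) and lay above background on 2 of 3 +DEX arrays. The groups overlapped only through −DEX replicate 1. Without that array the difference was −3.29, and without −DEX replicate 2 it was −1.68. BOB1, of the NudC type, differed by −0.74 ± 0.48 without overlap (limma adjusted p = 0.79), and its relative AT4G27890 by −0.48 ± 1.08.

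Over the HSP70, HSP90, Hop, exchange factor, J-domain, isomerase and co-chaperone lists, 25 of 84 loci outside the 7 genes were measured, and 0 of the 25 were called lower and 0 higher at a limma adjusted p under 0.05, where 0.119% of all probe sets were called lower and 0 higher. Without adjustment, 4 of the 25 were lower and 1 was higher at a p under 0.05, where 4.11% and 2.49% of all probe sets were. The 25 had a median difference of −0.40, with 17 lower and 8 higher means, and a median of −0.21 with 14 lower on the deposited scale. With single arrays left out, the sign of 14 of the 25 differences turned at least once. None of the 7 HSP90 genes, 3 HSP100 genes and 22 heat shock factor or MBF1c genes of the lists had a singly named probe set.

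**Figure D3:**
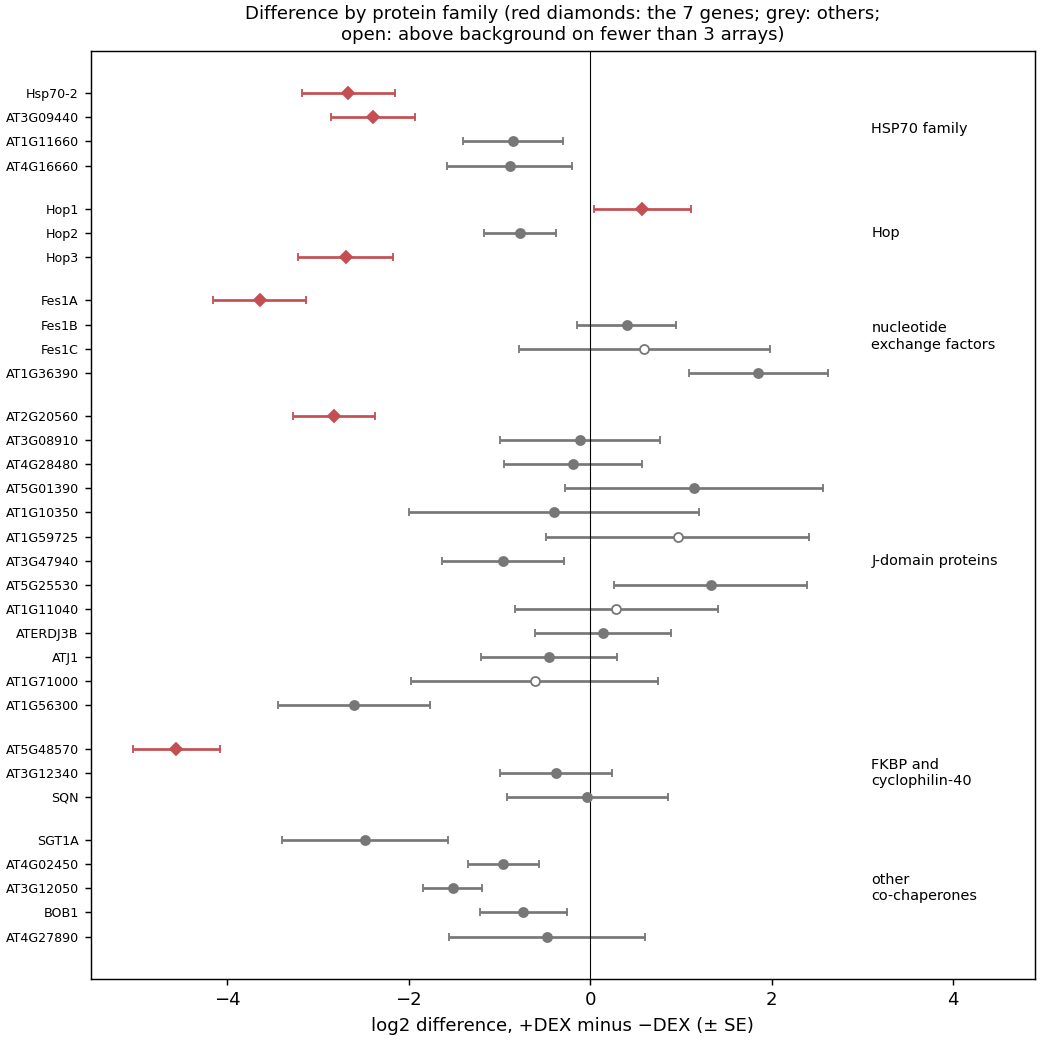
Log2 difference, +DEX minus −DEX, with its SE (horizontal axis) for the 7 genes (red diamonds) and the 25 other measured genes of the same machinery (grey circles), by family, with open symbols for genes above background on fewer than 3 arrays. AT5G48570 at −4.56 and Fes1A at −3.64 lie farthest to the left, and Hop1 at 0.57 is the only red symbol right of 0.

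The order of the arrays within the groups is described next for the 7 genes. Of the 3 −DEX arrays, replicate 3 had the lowest value for 6 of the 7 genes, all but Fes1A. Of the 3 +DEX arrays, replicate 2 had the highest value for 5, all but AT3G09440 and Hsp70-2. The shares of all probe sets with these orders were not computed, so nothing about the 7 genes is read from these counts. The mean over the 6 genes without Hop1 was 13.61, 13.71 and 12.65 without DEX and 9.91, 10.77 and 9.90 with it, that is 13.32 ± 0.58 and 10.19 ± 0.50 (SD, n = 3 each). The 90th percentile of all log2 values was 10.74, 10.97 and 10.54 without DEX and 10.71, 10.47 and 10.58 with it. −DEX replicate 3 was thus lowest of its group in that percentile too, whereas +DEX replicate 2, the array with the highest mean of the 6 genes in its group, was lowest there.

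The rank of a probe set on its array, which needs no scaling, separated the groups in the same way. AT5G48570 lay at percentiles 99.7, 99.8 and 99.3 of all probe sets without DEX and at 85.6, 94.3 and 86.0 with it. Fes1A moved from 95.9, 98.1 and 97.5 to 81.9, 85.9 and 71.4, and Hsp70-2 from 94.2, 95.5 and 91.7 to 79.4, 79.4 and 75.8. Hop3 moved from 99.2, 99.1 and 98.4 to 91.0, 97.7 and 90.3. Hop1 was at 85.5, 82.4 and 77.4 without and 86.6, 89.7 and 83.6 with DEX. Percentiles compare the same probe set between arrays and do not rank transcripts by abundance.

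Ordered by their log2 difference, the genes ran from AT5G48570 (−4.56 ± 0.48) and Fes1A (−3.64 ± 0.51) through AT2G20560, Hop3, Hsp70-2 and AT3G09440, which lie between −2.83 and −2.39 with errors of 0.45 to 0.52, to Hop1 (0.57 ± 0.53). Neighbours among the middle 4 differ by less than their errors, while AT5G48570, Fes1A and AT2G20560 lie farther from each other than 1 SE. None of these differences between genes was tested.

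**Figure D4:**
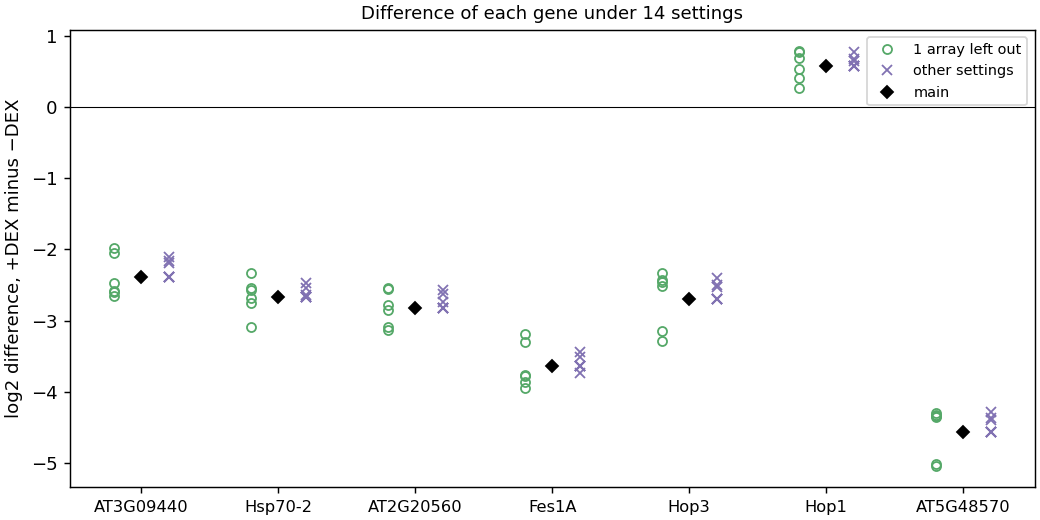
Log2 difference, +DEX minus −DEX (vertical axis), of each gene in the main fit (black diamonds), with 1 array left out (green circles) and under the other settings (purple crosses). The differences of AT5G48570 range from −5.04 to −4.29, those of Hop1 from 0.27 to 0.78, and no gene crosses 0.

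The genes whose values over the 6 arrays were most like the mean profile of the 7 were sought among 7436 other singly named genes above background on at least 3 arrays. Likeness was the root mean square difference between profiles centred on their own mean, in log2 units over 6 arrays, and its median over the genes searched was 1.66. The nearest was AT1G54050, a small heat shock protein, at 0.19, with 15.00, 14.98 and 14.03 without and 11.37, 12.46 and 11.88 with DEX. EX1 (EXECUTER1), a chloroplast protein known from singlet oxygen signalling, was next at 0.27, with 10.10, 10.25 and 9.13 without and 7.71, 7.77 and 7.21 with DEX. AT5G51440, a mitochondrial small heat shock protein, followed at 0.30, with 13.47, 13.13 and 12.46 without and 10.47, 10.36 and 10.26 with DEX.

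The next were AT2G37980 (0.32), AT5G03370 (0.33), AT2G39100 (0.34), AT1G67360, a lipid droplet protein (0.34), and AT3G17110 (0.37). All 8 had +DEX arrays below all −DEX arrays, as their choice by this profile favours. Their differences ranged from −2.77 for AT1G54050 to −2.01 for AT3G17110. Among the 7 genes themselves AT2G20560 was closest to the mean profile (0.25), then Hsp70-2 (0.30) and Hop3 (0.36). AT3G09440 (0.58), Fes1A (0.71), AT5G48570 (1.01) and Hop1 (1.6) lay farther from it than each of the 8 genes above. This was so although the 7 genes themselves make up that mean.

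**Figure D5:**
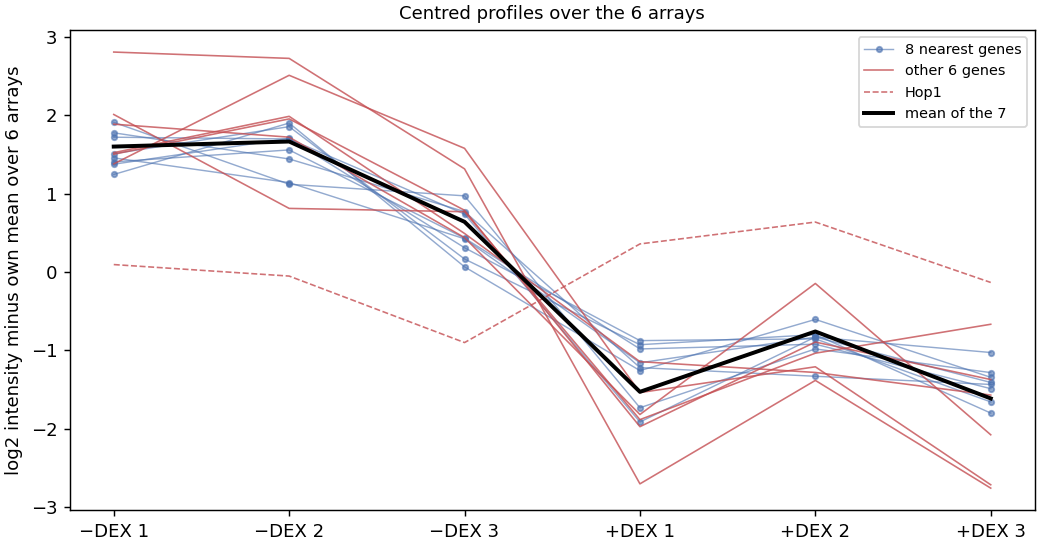
Log2 intensity minus each gene's own mean over the 6 arrays (vertical axis) by array, for the 7 genes (red, Hop1 dashed), their mean (black) and the 8 genes most like that mean (blue). Lines only join the values of one gene. The mean profile is highest on −DEX replicates 1 and 2 and lower on all +DEX arrays, while the groups of Hop1 overlap.

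The genes beside the 7 were looked up in the TAIR10.1 gene table. Of the 14 protein-coding genes next to the 7, 4 were measured, and 0 of the 4 passed a limma adjusted p of 0.05. The shares over all probe sets were 0.119% lower and 0 higher. AT5G02480, beside Hsp70-2, differed by 0.11 ± 0.83 and AT3G09360, beside Fes1A, by −0.36 ± 0.60. AT2G20550, beside AT2G20560, differed by −0.48 ± 1.05, with SDs of 0.42 without and 2.49 with DEX. AT3G09430, beside AT3G09440, lay under background on all 3 −DEX arrays.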

How the data were processed

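The values are the deposited intensities of 6 ATH1 arrays, 1 linear intensity per probe set, in the authors' value table. How probes were summarised was not stated in the labels or the file. Each array had a 2% trimmed mean of 500 in the deposited table. Per the labels' protocols, TRIzol was used for RNA extraction and a 3′ kit for biotin labelling. Sample titles gave the group and the replicate number.

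Of all probe sets 64 controls were left out. Each array was scaled to the common (geometric mean) median, and log2 was taken of values no lower than 1. The test was limma 3.58.1 in R 4.3.3 (group as the only term, eBayes with a variance trend, two-sided, Benjamini-Hochberg over 22746 probe sets, threshold 0.05). The code was also run on simulated data with independent noise, which does not show its error rate on these arrays. Group errors are standard deviations over 3 arrays.

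Names came from the array annotation and the gene table of TAIR10.1. Of the tested ones 13436 had 1 named gene, 503 several and 8807 none that matched. For a gene with several probe sets the brightest was used. The genes and the 11 lists of related genes were chosen with earlier results of these data known. Text names the 7 genes, list members past the threshold, up to 4 per list with the smallest p, close paralogues and the 8 genes of most similar profile. ATERDJ3B, ATJ1, AT4G27890 and the gene neighbours were added after their values were seen. Alternatives were the replicate block, 2 scalings, a filter, the variance model, array weights, a floor and each array left out.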

Additional observations from a re-analysis of the deposited data

How the results depend on the processing

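The difference of each of the 7 genes kept its sign in all 13 other settings, which for the 6 genes without overlap could not come out otherwise when an array is left out. The median difference of the 7 genes, −2.69, lay between −3.14 and −2.55 with single arrays left out, and was −2.54 after quantile normalization and −2.50 as deposited. The median over all probe sets, −0.10 as scaled, was then 0.01 and 0.09. The count of probe sets called lower with DEX, 27, was 0 with eBayes without a trend and 0 with a floor at a log2 of 5. It ranged from 0 to 46 with single arrays left out, being 12 without −DEX replicate 1, 0 without −DEX replicate 2, 46 without −DEX replicate 3, 3 without +DEX replicate 1 and 4 without +DEX replicate 3. For these changes the cause was not tested. Called higher were 0 in every setting run. Of the chaperone lists outside the 7 genes, 0 to 1 gene was called lower with single arrays left out, the 1 being AT3G12050 without −DEX replicate 3. In the other settings 0 were called lower. With the replicate number as a block, 33 probe sets were called lower. Deviations of arrays with the same number correlated by 0.025, −0.0051 and 0.014, so the numbers were not treated as pairs.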

Other observations

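The cytosolic chaperonin CCT, a ring-shaped folding machine that works beside HSP70 on actin and tubulin, had 7 of 8 listed subunit genes measured. None of the 7 passed a limma adjusted p of 0.05 in either direction (smallest adjusted p = 0.75), and 0 had an unadjusted p under 0.05, where 4.11% of all probe sets were lower and 2.49% higher at that p. Their median difference was −0.31, with 5 lower and 2 higher means, and 4 lower and 3 higher after quantile normalization and as deposited. AT1G24510 was at 11.84, 10.44 and 10.40 without and 9.73, 9.22 and 10.25 with DEX, a difference of −1.16 ± 0.54 (SE; limma adjusted p = 0.75). Without −DEX replicate 1 it was −0.68. AT3G03960 differed by −0.97 ± 0.59 with overlap between the groups. AT5G20890 and AT3G18190 differed by −0.44 ± 0.49 and 0.50 ± 0.68.

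Of 10 listed folding factors of the endoplasmic reticulum 2 were measured. AT5G07340, a calnexin, differed by −0.10 ± 0.72 and CRT1b, a calreticulin, by 0.18 ± 1.22 (limma adjusted p = 0.99 for both). The difference of AT5G07340 turned to 0.09 on the deposited scale, and that of CRT1b to −0.79 without −DEX replicate 1.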
